A study of Mus musculus with 54 samples.

Results

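Lactation was compared between the ends of the mouse small intestine, the ileum and the duodenum, by asking of each gene whether its difference between lactating and virgin females was the same at both ends. The libraries were chosen by their labels: 6 of the ileum of lactating females (LF), 6 of the ileum of virgin females (VF), 5 of the duodenum of lactating females and 6 of the duodenum of virgin females, 23 of the 54 libraries of the series. Lactating females were on day 7 of lactation, and virgin females were matched to them in age. The labels give no strain, genotype or age, and name a breeding diet (RM3) and a maintenance diet (RM1). The part of diet in the differences between LF and VF was not tested. A sixth library labelled as duodenum of lactating females, LF_Duodenum 3, was left out because its profile is that of liver. The study sequenced polyadenylated RNA from pieces of gut wall, so a lower level may mean fewer cells of a type or less RNA per cell, and these cannot be told apart. The labels do not state whether a shared replicate number means a shared animal, nor that replicates were more than separate samples. The p-values therefore measure the spread between these samples, which may be technical.

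The small intestine absorbs most nutrients along a gradient. The duodenum takes up iron, calcium and much of the sugar and is lined by cells with high levels of the transporters for them, while the ileum recovers bile acids and vitamin B12 and normally meets a smaller load of sugar, peptide and fat. In lactating rodents, food intake rises and the intestine grows, and calcium uptake, which runs through the channel TRPV6, the buffer protein calbindin-D9k (gene S100g) and the calcium pump PMCA1 (gene Atp2b1), supplies the mineral of the milk.

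The 23 libraries held 19068931 to 26923744 gene reads each. Levels are given in CPM, a gene's read count scaled to the size of its library, here after scaling by the trimmed mean of M values. The section labels fitted their markers: Fabp6, the ileal bile acid binding protein, was at 2879 to 6064 CPM in the LF ileum, against 0 to 0.15 CPM in the LF duodenum, and Lct, the milk sugar enzyme of the upper intestine, was at 0.274 to 5.29 CPM in the LF ileum, against 1561 to 3844 CPM in the LF duodenum. In LF_Duodenum 3, the liver list made up 20.1% of gene reads, against at most 0.0408% in the 23 libraries used. Pancreas markers varied among the duodenum libraries, mostly with lactation status. Their summed level was 40.5 to 63.6 CPM in 4 LF duodenum libraries and 18591 CPM in LF_Duodenum 5, against 1349 to 12993 CPM in 5 VF duodenum libraries and 48.0 CPM in VF_Duodenum 3 (exact permutation test, 2-sided, p = 0.0974, adjusted over 32 tests 0.346). In the ileum the same list summed to 38.2 to 51.3 CPM in LF and 33.1 to 57.6 CPM in VF libraries.

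The lactation effect differed between the ends in 4 genes of 15512 tested (0.0258%) by edgeR's quasi-likelihood test at an adjusted p under 0.05. Zbed6 and Ttll2 were higher with lactation in the ileum relative to the duodenum, and Cyp2d34 and Oxct1 were lower. At an unadjusted p under 0.05 there were 873 genes (5.63%), near the share that this threshold gives when no gene differs. Throughout, an effect is a log2 fold change of LF over VF ± its standard error, and the difference is the ileum's effect less the duodenum's. The median standard error of that difference over all genes was 0.23, against 0.16 for the effect at either end. All 4 genes were called in each of the 23 fits that left out 1 library, and none of the 4 was called with lactation status and replicate number as a block. With LF_Duodenum 3 included only Zbed6 was called, at a difference of 4.34 and an adjusted p of 0.0081 in edgeR.

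**Figure D1:**
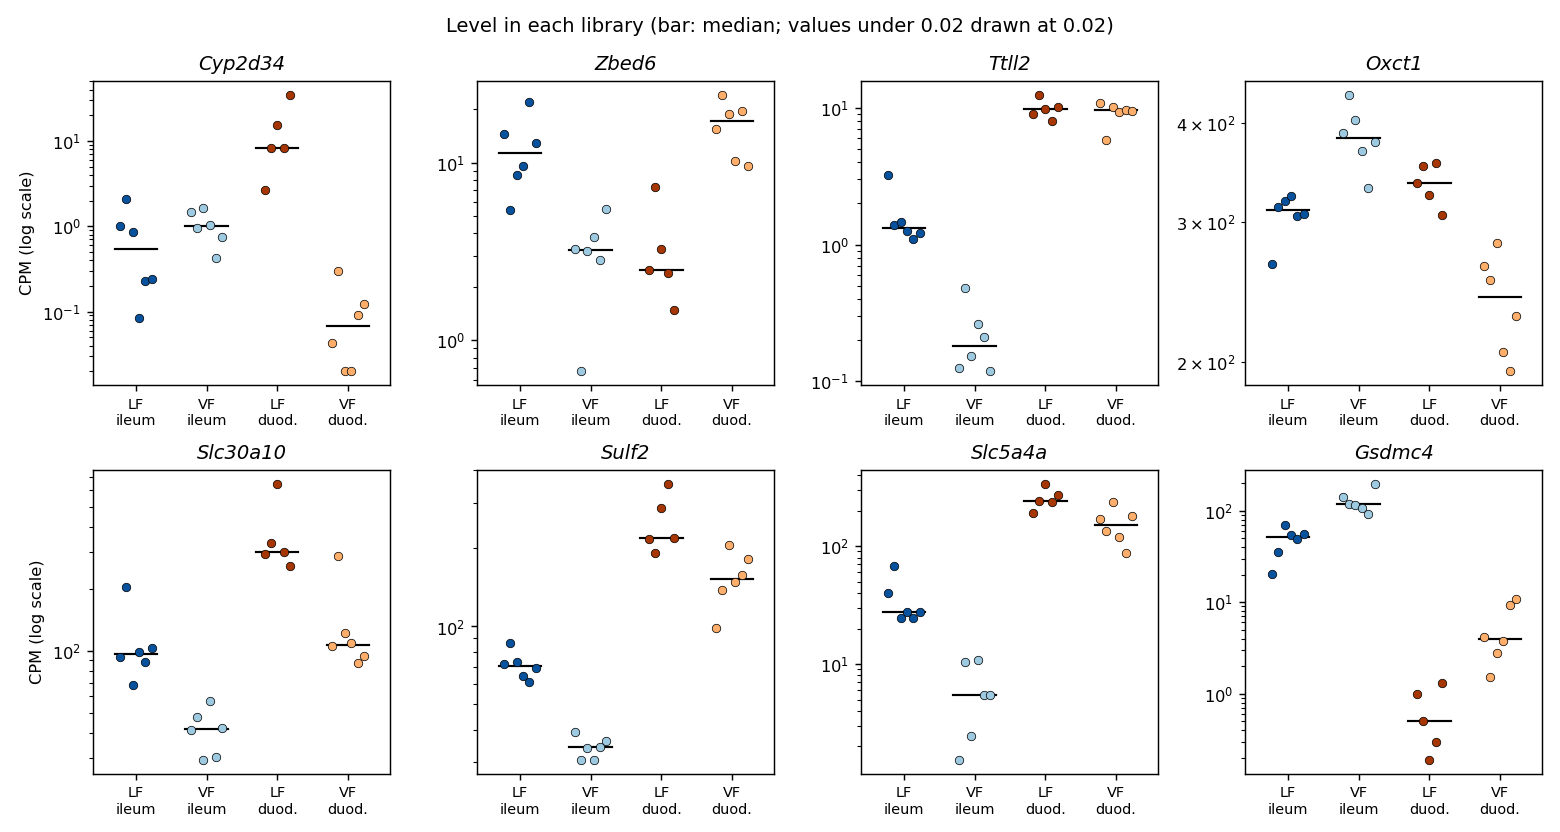
CPM (log axis) of 8 genes in each of the 23 libraries, by group (LF ileum, VF ileum, LF duodenum, VF duodenum), with a bar at each median and values under 0.02 drawn at 0.02. Cyp2d34 is above 2 CPM in all 5 LF duodenum libraries and under 0.3 CPM in all 6 VF duodenum libraries, and Zbed6 is high in LF ileum and in VF duodenum.

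Cyp2d34, a cytochrome P450 of the 2D family, which oxidises drugs and steroids, gave the widest gap. In the LF ileum it was between 0.0844 and 2.07 CPM (median 0.548), against 0.42 to 1.64 CPM (median 0.999) in the VF ileum. In the LF duodenum it was at 2.7, 8.21, 15.2, 8.20 and 34.7 CPM, against 0 to 0.298 CPM (median 0.0669) in the VF duodenum. The ileum groups overlapped and the duodenum groups did not. Read counts were 54 to 769 in LF duodenum libraries and 0 to 8 in VF duodenum libraries, so the lower level rests on few reads. The effect was -0.51 ± 0.62 in the ileum (adjusted p = 0.878) and 7.05 ± 0.78 in the duodenum (adjusted p = 5.97e-05), and the difference was -7.56 ± 1.00 (edgeR, adjusted p = 0.00161). The gene lies on chromosome 15 from 82615965 to 82620946 (GRCm38, minus strand), in a cluster of related Cyp2d genes among which near-identical reads can be split or lost.

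Zbed6, a transcription factor derived from a transposable element and known in pigs and mice as a repressor of Igf2, was called in opposite directions at the ends. In the LF ileum it was at 5.43 to 21.9 CPM (median 11.3), against 0.67 to 5.45 CPM (median 3.24) in the VF ileum. In the LF duodenum it was at 2.50, 7.30, 3.26, 2.41 and 1.49 CPM, against 9.61 to 24.1 CPM (median 17.1) in the VF duodenum. The ileum groups crossed by 1 pair of libraries, 5.43 CPM in LF and 5.45 CPM in VF, and the duodenum groups did not overlap. The effect was 1.91 ± 0.39 in the ileum (adjusted p = 0.0317) and -2.27 ± 0.43 in the duodenum (adjusted p = 0.0176), and the difference was 4.18 ± 0.58 (edgeR, adjusted p = 0.00162). It was the only gene of 15512 (0.00645%) called in both ends in opposite directions. The ileum call held in 16 of the 23 fits that left out 1 library and was lost under library totals and a replicate block. The duodenum call held in 20 of 23 and was lost under that block, in the duodenum's own fit and with a weight per section. The gene occupies 133655879 to 133660885 on chromosome 1 (GRCm38, minus strand), inside the gene Zc3h11a on the same strand, and 2 annotated exon intervals of Zc3h11a overlap it, as does the annotated gene Gm38394, so the split of reads among them is uncertain. Zc3h11a itself was at 165 to 198 CPM in the LF ileum, 186 to 200 CPM in the VF ileum, 201 to 226 CPM in the LF duodenum and 215 to 264 CPM in the VF duodenum, and its difference was 0.08 ± 0.10.

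Ttll2, a member of the tubulin tyrosine ligase-like family of enzymes that add amino acids to tubulin, was a gene of the duodenum that was low in the virgin ileum. In the LF ileum it was at 1.09 to 3.24 CPM (median 1.33), against 0.118 to 0.479 CPM (median 0.181) in the VF ileum, with no overlap. Read counts were 24 to 71 in LF ileum libraries and 3 to 10 in VF ileum libraries, so the lower level rests on few reads. LF duodenum libraries held 9.03, 12.5, 9.94, 8.11 and 10.3 CPM, against 5.88 to 10.9 CPM (median 9.63) in the VF duodenum, and these groups overlapped. The effect was 2.85 ± 0.32 in the ileum (adjusted p = 8.81e-05) and 0.10 ± 0.24 in the duodenum (adjusted p = 0.93), and the difference was 2.74 ± 0.40 (edgeR, adjusted p = 0.00281). Ttll2 lies on chromosome 17 from 7350885 to 7352696 (GRCm38, minus strand), where an annotated gene, Gm49630, overlaps it on the same strand. Gm49630 also overlaps Unc93a2, at 7362815 to 7385464 on that strand, whose difference was above 0 but not called. Unc93a2 had 70 to 195 reads in LF ileum and 16 to 49 in VF ileum libraries. In the duodenum it had 828 to 1457 reads in LF and 695 to 1437 in VF libraries. Among ileum libraries, LF_Ileum 1 held the most reads of both genes.

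Oxct1, the mitochondrial enzyme that commits ketone bodies to oxidation, had the smallest difference of the 4. In the LF ileum it was at 266 to 324 CPM (median 310), against 331 to 434 CPM (median 383) in the VF ileum. Its LF duodenum levels were 335, 353, 325, 356 and 306 CPM, against 195 to 282 CPM (median 241) in the VF duodenum. The groups overlapped at neither end, and the LF libraries of the ileum were the lower ones while those of the duodenum were the higher ones. The effect was -0.33 ± 0.09 in the ileum (adjusted p = 0.146) and 0.49 ± 0.10 in the duodenum (adjusted p = 0.023), and the difference was -0.82 ± 0.14 (edgeR, adjusted p = 0.0128). Oxct1 spans 4026383 to 4155344 on chromosome 15 (GRCm38, plus strand). Of 25 tested genes for fatty acid oxidation and ketone metabolism, none was called at either end or for the difference, and the medians of their effects were 0.09 in the ileum, 0.01 in the duodenum and 0.06 for the difference. Oxct1 was not on that list.

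The next genes in order did not pass the adjustment, and are given as values. Mgat4c, of a family of N-acetylglucosaminyltransferases that branch glycans, missed the threshold narrowly with a difference of -2.12 ± 0.39 (edgeR, adjusted p = 0.0506). It was at 344 to 443 CPM in the LF ileum and 372 to 470 CPM in the VF ileum, groups that overlapped. In the duodenum, where its level was far lower, it was at 2.25 to 5.32 CPM in LF, and only 1 VF library, VF_Duodenum 6 at 2.47 CPM, reached that range, the others being at 0.44 to 1.17 CPM. Mgat4c was called in the duodenum (2.06 ± 0.31, adjusted p = 0.0026), also in each of 23 fits that left out 1 library.

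Among the other uncalled genes with a difference below 0 were Slc9a3, the sodium/proton exchanger of the brush border (-1.54 ± 0.35), Ggh, the hydrolase of dietary folate chains (-1.44 ± 0.29), Ptk6, a kinase of the differentiating epithelium (-1.2 ± 0.30), and Rnf43, a ubiquitin ligase that removes Wnt receptors (-0.91 ± 0.22). Slc9a3 was at 9.28 to 18.2 CPM in the LF ileum, entirely under the 18.9 to 41.7 CPM of the VF ileum, and at 441 to 1109 CPM in the LF duodenum, against 271 to 784 CPM in the VF duodenum. Its effects of -1.07 in the ileum (adjusted p = 0.0572) and 0.47 in the duodenum (adjusted p = 0.566) were not called. Ggh, Ptk6 and Rnf43, with the mitochondrial protease gene Oma1 (difference -0.69 ± 0.17), rose in the duodenum by 1.31, 1.18, 0.86 and 0.82, and their effects in the ileum were -0.13, -0.02, -0.05 and 0.13. Sult1c2, Sprr2a3, Mfsd4a, Cd300lg and the vascular growth factor receptor gene Flt1 had differences of -1.99, -1.26, -1.11, -1.07 and -0.52 and were called at neither end. Sprr2a3 belongs to a family of near-identical genes.

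Among the uncalled genes with a difference above 0 were Acot12, a cytosolic acetyl-CoA thioesterase (2.43 ± 0.57), Slc6a18, a neutral amino acid transporter (2.17 ± 0.55), Dnase1, a secreted nuclease (2.12 ± 0.50), and Pck1, the enzyme that makes phosphoenolpyruvate in gluconeogenesis (1.99 ± 0.53). Pck1 was at 59.5 to 207 CPM in the LF ileum, overlapping the 36.1 to 116 CPM of the VF ileum. In the duodenum it was at 134 to 264 CPM in 4 LF libraries and 709 CPM in LF_Duodenum 4, against 528 to 1207 CPM in VF, and the effect there was -1.51 ± 0.39 (adjusted p = 0.106). Slc6a18 rose in the ileum, to 12.4 to 23 CPM in LF, against 2.66 to 8.87 CPM in VF (1.54 ± 0.32, adjusted p = 0.0317). Pmp22, a membrane protein known from myelin, was at 1345 to 1764 CPM in the LF ileum and 687 to 1325 CPM in the VF ileum, where it was not called (0.55 ± 0.23). It fell in the duodenum, to 26.7 to 42.6 CPM in LF, against 26.9 to 111 CPM in VF (-1.14 ± 0.25, adjusted p = 0.0475), and its difference was 1.70 ± 0.35 (edgeR, adjusted p = 0.106).

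Lmbrd2, the ubiquitin ligase gene Cbl and the tankyrase gene Tnks had differences of 1.94 ± 0.41, 1.62 ± 0.43 and 1.36 ± 0.34. Like Zbed6 they had effects above 0 in the ileum (1.16, 0.85 and 0.68) and below 0 in the duodenum (-0.78, -0.76 and -0.68), none of them called. Within groups these genes and Zbed6 varied together. VF_Ileum 2 had the fewest VF ileum reads of Zbed6 (14), Lmbrd2 (38), Cbl (60) and Tnks (112). LF_Duodenum 6 had the fewest LF duodenum reads of each (33, 63, 94 and 327). The 32 genes with a difference above 0 at an unadjusted p under 0.001 had a median exonic length of 7282 bases, against 3689 bases for the 17 genes with a difference below 0 and 4282 bases for all tested genes with a length. The median share of reads on no annotated feature was 12.1% in LF ileum, 12.9% in VF ileum, 14.9% in LF duodenum and 16.3% in VF duodenum libraries. The part of transcript length or of unassigned reads in these differences was not tested.

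**Figure D2:**
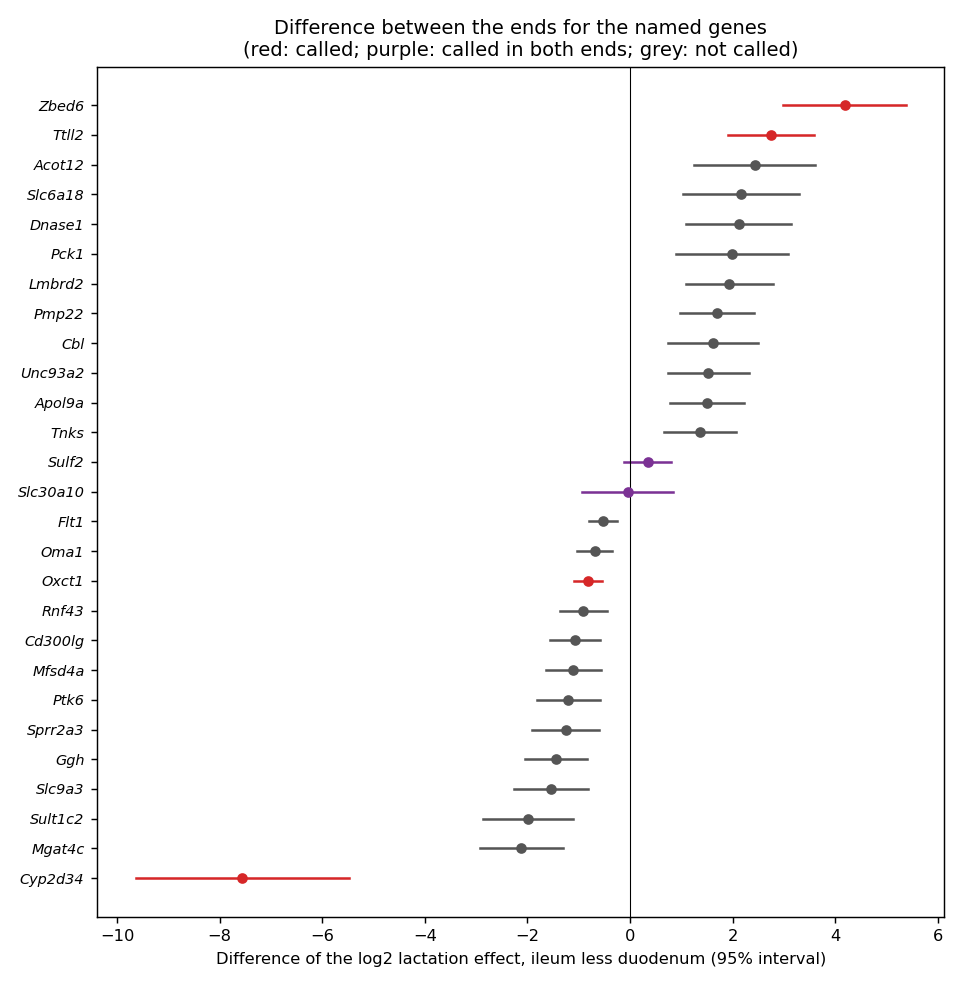
Difference of the log2 lactation effect, ileum less duodenum, with its 95% interval, for the genes named by the rule on the difference and the genes called in both ends. Red marks the 4 called genes, from Zbed6 at 4.18 to Cyp2d34 at -7.56, purple the genes called in both ends, Sulf2 and Slc30a10, and grey those not called.

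Within each end, 58 genes were called in the ileum (0.374% of 15512), 51 higher (0.329%) and 7 lower (0.0451%) in LF. In the duodenum 52 were called (0.335%), 43 higher (0.277%) and 9 lower (0.058%). The LF and VF libraries did not overlap for 2.22% of genes in the ileum and 0.696% in the duodenum. Scaled to library totals alone, the calls were 26 higher and 16 lower in the ileum and 31 higher and 12 lower in the duodenum. That scaling moved the median effect of all genes to -0.11 in the ileum and -0.06 in the duodenum, where the scaling used here gave 0.01 at both ends. Under library totals some list medians just above 0 fell below it, the duodenum medians of the sugar and interferon lists and the ileum medians of the crypt and the gasdermin lists among them, while the sugar and interferon medians in the ileum were 0.36 and 0.40. Of the 58 ileum calls 14 held in every fit that left out 1 library, and of the 52 duodenum calls 12 did. Among genes described below, Rsad2 held in 10 of 23 such fits, Ednra in 7 and Cyp51 in 9, and Pmp22, above, in 6. Both counts come from 1 fit of the 23 libraries, which shares 1 estimate of the spread. Fitted on its own, the ileum gave 161 calls, 49 of them among the 58, and the duodenum gave 1, Cyp2d34. With the pancreas marker level as a covariate, an alternative chosen after the levels were seen, the duodenum gave 23 calls, 12 of them among the 52, and the ileum 56, 53 of them among the 58.

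Genes called in both ends in 1 direction numbered 2 (0.0129% of the genes tested), Slc30a10 and Sulf2, both higher in LF. They made up 3.45% of the ileum's calls and 3.85% of the duodenum's. Of the 58 genes called in the ileum, 51 (87.9%) had an effect of the same sign in the duodenum, and of the 52 called in the duodenum, 42 (80.8%) had one of the same sign in the ileum, against 61.6% of all genes. At an unadjusted p under 0.05 and with the same sign, 15 of the 58 also differed in the duodenum and 20 of the 52 in the ileum. At that threshold 10.1% of all genes differed in the ileum and 9.59% in the duodenum, in either direction. A difference between the ends at that threshold was found for 41 of the 58 (70.7%) and 36 of the 52 (69.2%), against 5.63% of all genes, and these genes were chosen by effects that enter the difference. Across the 15512 genes, which are not independent replicates, the effects at the ends correlated at a Pearson r of 0.19, and at 0.29 across the 12726 genes whose log2 CPM averaged 1 or more. The ends share no library in these effects.

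**Figure D3:**
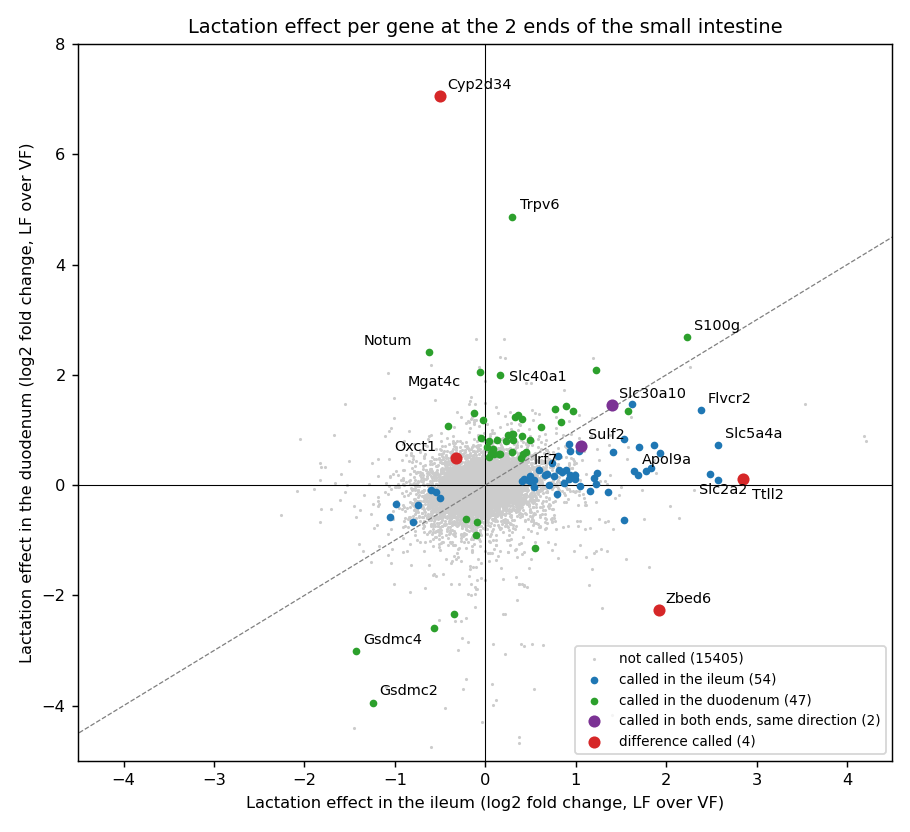
Log2 fold change of LF over VF in the ileum (horizontal axis) and in the duodenum (vertical axis), 1 point a gene, with a dashed line where both are equal. The 2 genes called in both ends in 1 direction lie near that line. Cyp2d34 lies at 7.05 on the vertical axis and Ttll2 at 2.85 on the horizontal axis. In the legend, genes called for the difference or in both ends are left out of the counts of each end.

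Slc30a10, the manganese exporter of the gut and liver, had nearly the same effect at both ends. In the LF ileum it was at 68.0 to 204 CPM (median 95.8), against 29.5 to 56.9 CPM (median 41.7) in the VF ileum, with no overlap. LF duodenum levels were 293, 334, 647, 301 and 257 CPM, against 87.1 to 122 CPM in 5 VF duodenum libraries and 290 CPM in VF_Duodenum 2, the library through which the groups overlapped. The effect was 1.4 ± 0.30 in the ileum (adjusted p = 0.0372) and 1.44 ± 0.31 in the duodenum (edgeR, adjusted p = 0.0395), and the interval of the difference ran from -0.93 to 0.84. The calls held in 13 and 12 of the 23 fits that left out 1 library. Gm2061, a long noncoding RNA annotated on the opposite strand across the start of Slc30a10, was at 25.4 to 42.0 CPM in the LF ileum, against 10.6 to 22.2 CPM in the VF ileum, and at 51.8 to 107 CPM in the LF duodenum, against 7.62 to 45.3 CPM in the VF duodenum. It rose in the duodenum (2.08 ± 0.34, adjusted p = 0.00464), and its effect in the ileum was 1.23 ± 0.32 (adjusted p = 0.0997). Gm2061 was chosen for its place beside Slc30a10 after its values were seen.

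Sulf2, an enzyme that removes sulfate groups from heparan sulfate outside the cell, rose at both ends. In the LF ileum it was at 61.2 to 86.3 CPM (median 70.3), against 30.5 to 39.2 CPM (median 34.1) in the VF ileum, with no overlap. LF duodenum libraries were at 217, 192, 287, 356 and 220 CPM, against 98.4 to 207 CPM (median 153) in the VF duodenum, where 1 pair of libraries crossed. The effect was 1.06 ± 0.15 in the ileum (adjusted p = 0.00158, called in 23 of 23 fits that left out 1 library) and 0.71 ± 0.16 in the duodenum (adjusted p = 0.0479, called in 4 of 23). The interval of the difference was -0.11 to 0.80.

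Several genes were high with lactation at both ends but passed the test in 1 end or in none. The calcium buffer gene S100g was at 4.36 to 38.7 CPM in the LF ileum and 1.86 to 5.70 CPM in the VF ileum, an effect of 2.23 ± 0.61 (adjusted p = 0.116). In the duodenum it rose, to 319 to 744 CPM in LF, against 21.7 to 61.8 CPM in 5 VF libraries and 252 CPM in VF_Duodenum 2 (2.68 ± 0.60, adjusted p = 0.0479, called in 8 of 23 fits that left out 1 library). The zinc importer gene Slc39a4 was at 629 to 1236 CPM in the LF ileum and 244 to 563 CPM in the VF ileum, with no overlap, and at 363 to 1429 CPM in the LF duodenum and 179 to 393 CPM in the VF duodenum. Its effects of 1.03 and 1.28 had adjusted p-values of 0.12 and 0.0606 (edgeR). The copper importer gene Slc31a1 rose in the ileum (0.93 ± 0.18, adjusted p = 0.0225), and in the duodenum it was at 509 to 646 CPM in LF, all above the 204 to 450 CPM of VF, at an adjusted p of 0.0838. Acta1, the skeletal muscle actin, was at 83.7 to 374 CPM in the LF ileum and 22.6 to 76.0 CPM in the VF ileum (2.26, adjusted p = 0.065). In the duodenum Acta1 was at 49.1 CPM in LF_Duodenum 6 and 5.07 to 9.18 CPM in the other LF libraries, against 0.447 to 6.29 CPM in VF (2.14, adjusted p = 0.141). The 8 tested skeletal muscle genes had a median ileum effect of -0.06, and the summed level of that list, Acta1 included, was 105 to 407 CPM in the LF ileum and 54.3 to 115 CPM in the VF ileum (exact permutation test, 2-sided, p = 0.00433, adjusted over 32 tests 0.0693). Acta1 was a large part of that sum, so the test does not speak for the other muscle genes.

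The genes of cholesterol synthesis, which the cell turns up together when sterols are low, had like effects at both ends. All 25 tested had effects above 0 at both ends, with medians of 0.29 in the ileum and 0.33 in the duodenum, where 51.2% and 51.6% of all genes were above 0 and both medians were 0.01. The median difference was -0.01, and none of the 25 had a difference at an unadjusted p under 0.05. Scaled to library totals, the medians were 0.18 in the ileum and 0.26 in the duodenum. In the ileum none was called. In the duodenum 3 rose, against 0.335% of all genes called there: Sqle, squalene epoxidase (0.59 ± 0.11, adjusted p = 0.0177), Mvk, mevalonate kinase (0.59 ± 0.11, adjusted p = 0.019), and Cyp51, lanosterol demethylase (0.56 ± 0.12, adjusted p = 0.0462). Sqle was at 234 to 319 CPM in the LF ileum and 182 to 267 CPM in the VF ileum (0.45 ± 0.10, adjusted p = 0.06), and at 23.8 to 32.9 CPM in the LF duodenum, all above the 15.3 to 20.3 CPM of the VF duodenum.

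**Figure D4:**
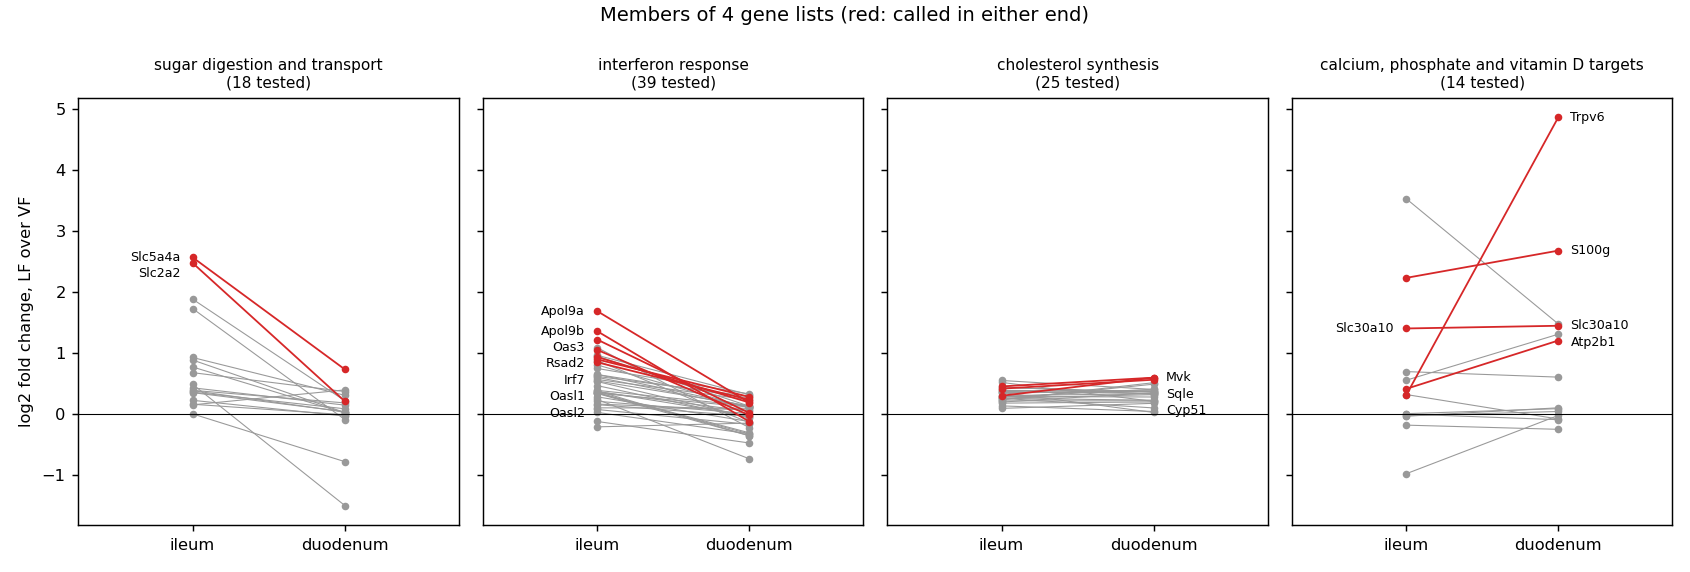
Log2 fold change of LF over VF of each tested member of 4 gene lists in the ileum (left of each panel) and in the duodenum (right), with members called at either end in red. The 25 cholesterol genes run level between the ends, the 18 sugar and 39 interferon genes mostly slope down towards the duodenum, and Trpv6 stands apart at 4.87 in the duodenum.

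Calcium genes were called mainly in the duodenum. Of 14 tested genes of calcium, phosphate and vitamin D action, 1 rose in the ileum (Slc30a10), against 0.374% of all genes called there, and 4 rose in the duodenum (Trpv6, S100g, Atp2b1 and Slc30a10), against 0.335%, and the list's medians were 0.31 in the ileum and 0.35 in the duodenum. Trpv6, the calcium entry channel, was at 0 to 0.288 CPM in the LF ileum and 0 to 0.13 CPM in the VF ileum, with at most 6 reads in any ileum library. In the LF duodenum it was at 23.5, 45.9, 207, 20.9 and 26.7 CPM, against 0.0811 to 0.44 CPM in 5 VF duodenum libraries and 11.8 CPM in VF_Duodenum 2. The duodenum groups did not overlap, and the effect was 4.87 ± 0.88 (edgeR, adjusted p = 0.0138). Without LF_Duodenum 4 the effect of Trpv6 was 3.73 (adjusted p = 0.0873), the only one of 23 such fits that ended the call, and without VF_Duodenum 2 it was 8.41. The call was also lost with the duodenum fitted on its own and with the pancreas marker level as a covariate. The difference of Trpv6 between the ends, -4.57, had an interval from -10.73 to 1.59, so at the ileum's depth of reads it could not be resolved. Atp2b1, the calcium pump, was at 456 to 680 CPM in the LF ileum and 349 to 548 CPM in the VF ileum (0.41 ± 0.22, adjusted p = 0.564), and at 321 to 1068 CPM in the LF duodenum and 175 to 389 CPM in the VF duodenum, where it rose (1.2 ± 0.23, adjusted p = 0.0213).

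Of the 21 tested genes of iron and trace metals, 2 rose in the ileum (Flvcr2 and Slc31a1), against 0.374% of all genes called there, and 1 rose in the duodenum (Slc40a1), against 0.335% of all genes. Slc40a1, ferroportin, the exporter of iron to the blood, rose in the duodenum by 1.99 ± 0.40 (adjusted p = 0.0238), at 791, 653, 1550, 939 and 443 CPM in LF, against 78.8 to 209 CPM in 5 VF libraries and 653 CPM in VF_Duodenum 2, which alone overlapped LF. In the ileum Slc40a1 was at 93.4 to 142 CPM in LF and 92.3 to 117 CPM in VF, groups that overlapped (0.16 ± 0.37). Cybrd1, the iron reductase of the brush border, and Slc11a2, the iron importer DMT1, had duodenum effects of 2.13 (adjusted p = 0.0838) and 0.68 (adjusted p = 0.0544) and ileum effects of -0.07 and 0.03. A duodenum effect above 0 was found for 20 of the 21, against 51.6% of all genes. At an unadjusted p under 0.05, 4 had a difference below 0, against 2.27% of all genes, and none had one above 0. None was called for the difference. In the ileum Flvcr2, a member of a family of haem and choline transporters, rose by 2.38 ± 0.35 (adjusted p = 0.00158), to 8.96 to 18.6 CPM in LF, against 0.582 to 4.37 CPM in VF. VF_Duodenum 2 was the highest VF duodenum library for Trpv6, S100g, Atp2b1, Slc40a1, Slc30a10 and Gm2061.

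Some vitamin genes also rose in the duodenum. Slc19a3, a thiamine transporter, was at 19.7 to 58.1 CPM in the LF duodenum and 12.7 to 20.5 CPM in the VF duodenum (1.06 ± 0.21, adjusted p = 0.0216), and in the ileum it was at 0.127 to 0.342 CPM in LF and 0.166 to 0.418 CPM in VF. The riboflavin transporter gene Slc52a3 was at 38.6 to 71.2 CPM in the LF duodenum, all above the 25.8 to 36.6 CPM of the VF duodenum (0.90 ± 0.16, adjusted p = 0.0123). In the ileum Slc52a3 was at 287 to 397 CPM in LF and 169 to 306 CPM in VF (0.41 ± 0.15, adjusted p = 0.306). Rfk, a gene outside the list that makes a riboflavin cofactor, rose in the duodenum as well (0.81 ± 0.16, adjusted p = 0.0242), with an ileum effect of 0.49 ± 0.16. Of 21 tested genes of vitamin and nucleoside uptake, Slc19a3 and Slc52a3 were the 2 called in the duodenum and none was called in the ileum, and the medians were 0.32 in the ileum and 0.25 in the duodenum.

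Of 19 tested crypt and Wnt genes, Rnf43 and Hopx, a marker of slow-cycling crypt cells (0.57 ± 0.11, adjusted p = 0.0224), rose in the duodenum, while the list's medians were 0.03 in the ileum and -0.24 in the duodenum. Outside the list, Notum, a secreted enzyme that inactivates Wnt proteins, was at 0.144 to 0.513 CPM in the LF ileum and 0.434 to 0.837 CPM in the VF ileum, groups that overlapped. In the LF duodenum it was at 2.08 to 19.8 CPM, all above the 0.995 to 1.70 CPM of the VF duodenum (2.41 ± 0.43, adjusted p = 0.0133). Notum had 419 reads in LF_Duodenum 4 and 41 to 87 in the other LF duodenum libraries. Its difference of -3.03 ± 0.66 was not called (edgeR, adjusted p = 0.136).

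Genes that fell in the duodenum included the gasdermin C genes, which act in the shedding of epithelial cells and respond to type 2 immune signals. Gsdmc4 was at 0.189 to 1.31 CPM in the LF duodenum, all under the 1.53 to 10.7 CPM of the VF duodenum (-3.01 ± 0.52, adjusted p = 0.0103). In the ileum Gsdmc4 was at 20.5 to 69.8 CPM in LF, all under the 91.4 to 198 CPM of VF (-1.43 ± 0.35, adjusted p = 0.0748). Gsdmc2 fell in the duodenum by 3.94 ± 0.69 on the log2 scale (edgeR, adjusted p = 0.0117), at 0.0982 to 0.225 CPM in LF and 0.335 to 6.97 CPM in VF, and in the ileum it was at 16.9 to 45.1 CPM in LF and 59.9 to 122 CPM in VF (-1.25 ± 0.35, adjusted p = 0.132). In the duodenum Gsdmc2 had 2 to 5 reads in LF and 9 to 172 in VF libraries, so its lower level rests on few reads. Gsdmc3 was at 6.20 to 23.7 CPM in the LF ileum, all under the 38.0 to 71.6 CPM of the VF ileum, and was called at neither end. The effects thus had 1 sign at both ends, the differences of Gsdmc2, Gsdmc3 and Gsdmc4 (2.7, 2.94 and 1.57) were not called, and reads may be split among these near-identical genes. The water channel gene Aqp1 also fell in the duodenum (-0.91 ± 0.19, adjusted p = 0.0351), with an ileum effect of -0.10 ± 0.18. Of 11 tested genes of the type 2 response and gasdermin C list, Gsdmc2 and Gsdmc4 were the 2 that fell in the duodenum, and the medians were 0.02 in the ileum and -0.68 in the duodenum. Srd5a2, a steroid 5-alpha reductase, fell in the duodenum to 0.0491 to 0.15 CPM in LF, against 0.261 to 0.905 CPM in VF (-2.59 ± 0.37, adjusted p = 0.00257), with an ileum effect of -0.57 ± 0.20. Srd5a2 had 1 to 3 reads in LF and 7 to 20 in VF duodenum libraries. Markers of neighbouring tissue were not called lower in the duodenum. The 15 tested liver genes and 15 tested adipose genes had duodenum medians of -1.21 and -0.99, against -0.06 and 0.02 in the ileum. No member was called lower, but 0 of the 15 liver genes and 2 of the 15 adipose genes had a duodenum effect above 0, against 51.6% of all genes. Pparg, on the adipose list, rose in the duodenum. The liver list summed to 40.7 to 57.3 CPM in LF and 56.6 to 408 CPM in VF duodenum libraries (exact permutation test, 2-sided, adjusted over 32 tests p = 0.225), and the adipose list to 433 to 508 CPM in LF and 461 to 819 CPM in VF (adjusted p = 0.346). With the pancreas marker level as a covariate, Gsdmc2 and Gsdmc4 were no longer called in the duodenum. The part of the liver, adipose, Brunner gland and stomach markers in the duodenum effects was not tested.

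In the ileum the genes that rose included sugar transporters that are high in the upper intestine. Of 18 tested genes of sugar digestion and transport, 2 rose in the ileum, against 0.374% of all genes called there, and none was called in the duodenum, the medians were 0.45 in the ileum, 0.06 in the duodenum and 0.49 for the difference, and 17 of 18 had a difference above 0 (94.4%, against 48.5% of all genes). No difference was called, and 6 were above 0 at an unadjusted p under 0.05, against 3.36% of all genes. Slc5a4a, of the sodium glucose cotransporter family, was at 24.3 to 68.1 CPM in the LF ileum, all above the 1.54 to 10.8 CPM of the VF ileum (2.57 ± 0.37, adjusted p = 0.00158). In the LF duodenum Slc5a4a was at 191 to 339 CPM, overlapping the 87.6 to 235 CPM of the VF duodenum (0.73 ± 0.35, adjusted p = 0.522), and the difference of 1.84 ± 0.51 was not called (edgeR, adjusted p = 0.355). Slc2a2, the glucose exporter GLUT2, rose in the ileum, to 0.927 to 6.38 CPM in LF, against 0.0416 to 0.91 CPM in VF (2.48 ± 0.52, adjusted p = 0.0329), levels far under the 437 to 798 CPM of the VF duodenum. Slc5a1, the main glucose cotransporter SGLT1, was at 1102 to 1532 CPM in the LF ileum and 680 to 1420 CPM in the VF ileum, and at 3692 to 6482 CPM in the LF duodenum and 3026 to 7236 CPM in the VF duodenum. Its effects of 0.38 and 0.18 were not called, and the interval of its difference was -0.38 to 0.80. Slc5a4b, a close paralogue of Slc5a4a, had effects of 1.73 in the ileum and -0.10 in the duodenum and was called at neither.

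Peptide and fat genes had the same lean. Of 25 tested genes of peptide and amino acid uptake, 22 had an ileum effect above 0 and 10 a duodenum effect above 0, the median difference was 0.32, and Slc6a18 alone was called. Slc6a19, the main neutral amino acid transporter of the brush border, was at 834 to 1199 CPM in the LF ileum, all above the 276 to 776 CPM of the VF ileum (0.81 ± 0.20, adjusted p = 0.0824), and at 376 to 762 CPM in the LF duodenum and 469 to 838 CPM in the VF duodenum (-0.05 ± 0.21). Of 30 tested genes of fat absorption, 29 had a difference above 0, with medians of 0.29 in the ileum, -0.08 in the duodenum and 0.33 for the difference. Fabp2, the intestinal fatty acid binding protein, rose in the ileum, to 3646 to 4511 CPM in LF, against 1073 to 3018 CPM in VF (0.99 ± 0.19, adjusted p = 0.0225). In the duodenum Fabp2 was at 1471 to 2090 CPM in LF and 1005 to 2225 CPM in VF (0.18 ± 0.20, adjusted p = 0.838). Acsl5, which activates fatty acids, rose in the ileum by 0.66 ± 0.15 (adjusted p = 0.0466), with a duodenum effect of 0.19 ± 0.15. The call of Acsl5 held in 8 of 23 fits that left out 1 library, and was lost under median-of-ratios scaling, no filter on low counts, the replicate block and the pancreas covariate. No gene of either list was called for the difference.

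Genes of the interferon response, a set switched on by interferons through a shared DNA element, made the largest group of ileum calls among the lists. Of 39 tested, 7 rose in the ileum (Irf7, Oas3, Oasl1, Oasl2, Rsad2, Apol9a and Apol9b), against 0.374% of all genes called there, and none was called in the duodenum. The medians were 0.53 in the ileum, 0.01 in the duodenum and 0.53 for the difference, and 38 of 39 had a difference above 0, against 48.5% of all genes. Of those, 12 had an unadjusted p under 0.05, against 3.36% of all genes, and none was called. Irf7, the factor that amplifies the response, was at 215 to 354 CPM in the LF ileum, all above the 113 to 177 CPM of the VF ileum (0.93 ± 0.16, adjusted p = 0.00918). In the duodenum Irf7 was at 167 to 303 CPM in LF and 145 to 288 CPM in VF (0.18 ± 0.17, adjusted p = 0.796). Apol9a was at 17.3 to 45.3 CPM in the LF ileum, all above the 5.11 to 14.5 CPM of the VF ileum (1.69 ± 0.25, adjusted p = 0.00158), and at 87.1 to 127 CPM in the LF duodenum and 59.0 to 130 CPM in the VF duodenum (0.18 ± 0.25). Oas3, an antiviral sensor of double-stranded RNA, was at 36.8 to 78.8 CPM in the LF ileum, all above the 16.1 to 32.0 CPM of the VF ileum (1.22 ± 0.24, adjusted p = 0.0256), with a duodenum effect of 0.01 ± 0.25. Rsad2, the antiviral protein viperin, was at 15.7 to 27.9 CPM in the LF ileum, all above the 8.27 to 13.7 CPM of the VF ileum (1.05 ± 0.23, adjusted p = 0.0427), with a duodenum effect of -0.02 ± 0.23. Apol9a and Apol9b are near-identical.

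The promoters of 3 of these genes are shown because they carry the core letters of the shared element, the interferon-stimulated response element: 2 copies of GAAA set 2 bases apart, on either strand, within the 250 bases before the start (RefSeq, GRCm38.p6, printed 5′ to 3′ on the gene's strand, with each match in capitals). The core stood in 3.39% of the 12178 tested genes with a RefSeq promoter, in 17 of 28 interferon genes with one (60.7%), and in 4 of the 7 called in the ileum (57.1%). It describes the sequence and does not show that a factor binds there. Oas3 is from chr5:120777660-120777909 (minus strand), Rsad2 from chr12:26456453-26456702 (minus strand), and Apol9a, at the first of its 2 listed starts, from chr15:77411081-77411330 (minus strand), where 2 overlapping matches form 1 run.
Oas3: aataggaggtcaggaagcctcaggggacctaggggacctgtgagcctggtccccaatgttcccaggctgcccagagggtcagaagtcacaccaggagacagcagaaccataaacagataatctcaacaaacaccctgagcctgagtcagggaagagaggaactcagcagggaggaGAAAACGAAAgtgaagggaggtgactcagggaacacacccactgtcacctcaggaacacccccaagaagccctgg
Rsad2: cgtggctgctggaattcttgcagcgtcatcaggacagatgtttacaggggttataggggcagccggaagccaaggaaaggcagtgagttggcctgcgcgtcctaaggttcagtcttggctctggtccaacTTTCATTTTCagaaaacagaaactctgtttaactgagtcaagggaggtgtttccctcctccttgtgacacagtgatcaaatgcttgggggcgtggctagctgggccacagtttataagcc
Apol9a: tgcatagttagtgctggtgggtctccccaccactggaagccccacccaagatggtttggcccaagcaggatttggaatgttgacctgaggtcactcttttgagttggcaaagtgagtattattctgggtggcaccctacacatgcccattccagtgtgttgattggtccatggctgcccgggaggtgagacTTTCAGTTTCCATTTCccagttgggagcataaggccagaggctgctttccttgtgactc
In Oas3 the match reads on the gene's own strand and in Rsad2 and Apol9a on the other.

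**Figure D5:**
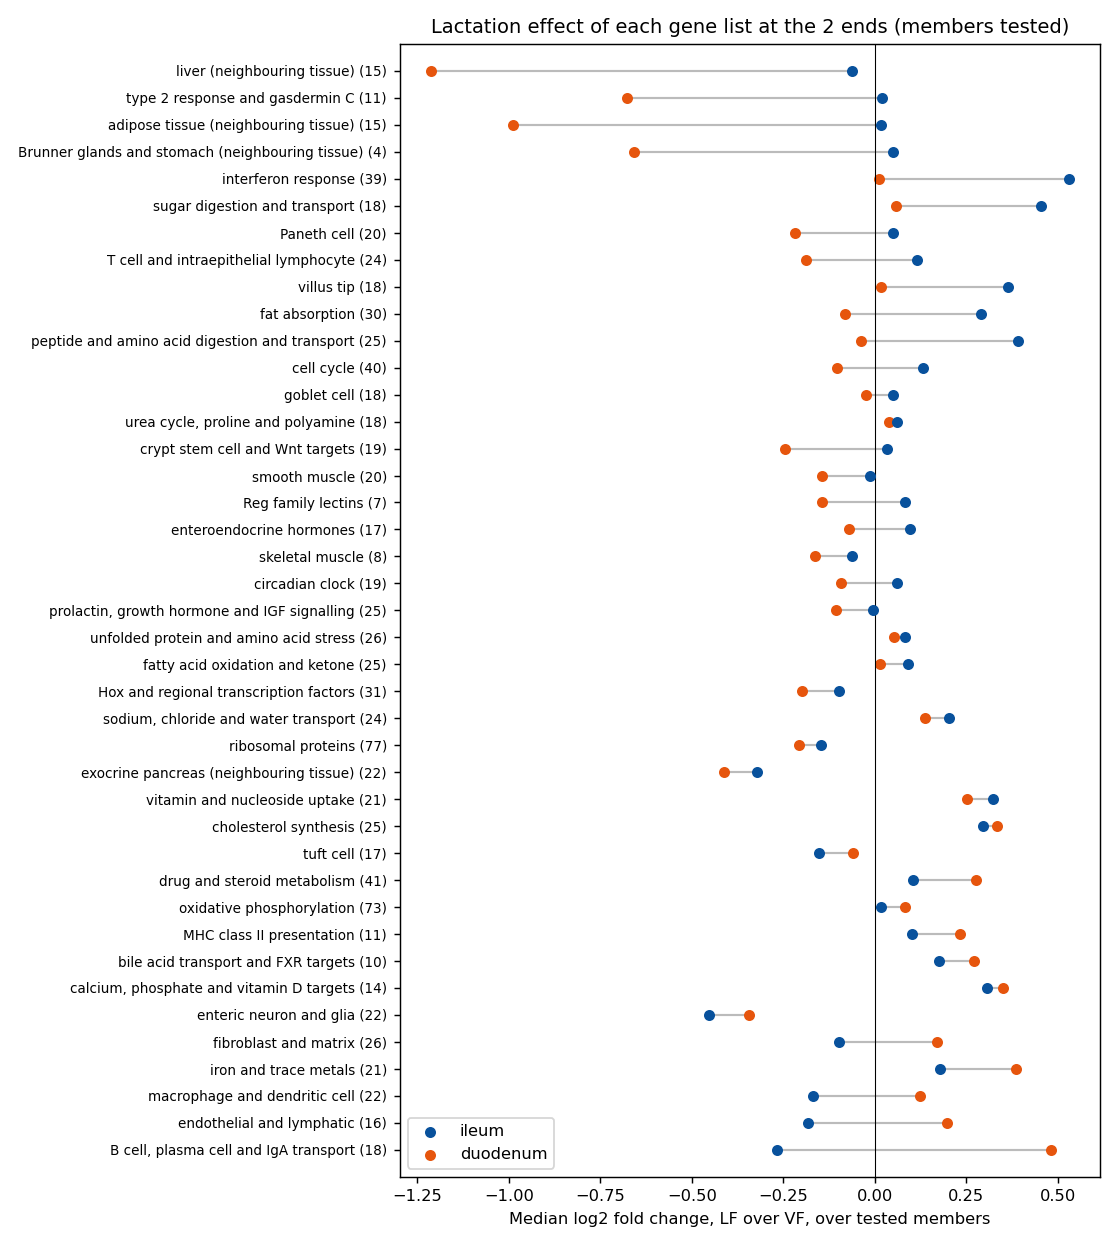
Median log2 fold change of LF over VF over the tested members of each of 41 gene lists, in the ileum (blue) and in the duodenum (orange), in order of the median difference, with the number of members tested in parentheses. Interferon genes reach 0.53 in the ileum and 0.01 in the duodenum, cholesterol genes 0.29 and 0.33, and the liver list -0.06 and -1.21.

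Lists of other cell types leaned to one end without calls. The median difference of 16 endothelial and lymphatic genes was -0.37, with medians of -0.18 in the ileum and 0.20 in the duodenum, and 7 of the 16 had a difference below 0 at an unadjusted p under 0.05, against 2.27% of all genes. They included Flt1 and Kdr, receptors of vascular growth factor, with Kdr effects of -0.08 in the ileum and 0.70 in the duodenum (adjusted p = 0.138). The summed level of this list was 183 to 258 CPM in the LF ileum and 228 to 341 CPM in the VF ileum, and 350 to 484 CPM in the LF duodenum and 283 to 395 CPM in the VF duodenum. The 18 B cell and plasma cell genes had medians of -0.27 in the ileum and 0.48 in the duodenum, where all 18 were above 0, and 1 of the 18 had a difference above 0. Enteric neuron and glia genes had medians below 0 at both ends, -0.45 in the ileum and -0.34 in the duodenum, where 1 of 22 was above 0 at each end and none was called. Their summed level was 235 to 299 CPM in the LF ileum and 296 to 468 CPM in the VF ileum (exact permutation test, 2-sided, p = 0.00433, adjusted over 32 tests 0.0693). None of the 32 such comparisons of summed marker levels had an adjusted p under 0.05.

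Growth markers were called at neither end. Of 40 cell cycle genes, 39 had an ileum effect above 0 and 3 a duodenum effect above 0, with medians of 0.13 and -0.10 (0.011 and -0.16 scaled to library totals), and the differences, all above 0 and at most 0.61, included none at an unadjusted p under 0.05. The proliferation marker Mki67 was at 118 to 143 CPM in the LF ileum and 97.5 to 144 CPM in the VF ileum, and at 37.0 to 165 CPM in the LF duodenum and 73.1 to 165 CPM in the VF duodenum. The stem cell marker Lgr5 had effects of 0.11 ± 0.11 in the ileum and -0.24 ± 0.12 in the duodenum. Olfm4, another crypt marker, was at 227 to 418 CPM in the LF ileum and 214 to 322 CPM in the VF ileum. In the duodenum Olfm4 was at 79.7 to 141 CPM in 4 LF libraries and 347 CPM in LF_Duodenum 6, against 186 to 340 CPM in VF (-0.64 ± 0.26, adjusted p = 0.408). Prlr, the receptor of prolactin, was at 146 to 179 CPM in the LF ileum and 88.5 to 175 CPM in the VF ileum, with effects of 0.33 ± 0.14 and 0.19 ± 0.15 that were not called. Fgf15, the bile acid hormone of the ileum, was at 0.319 to 24.8 CPM in the LF ileum and 3.33 to 111 CPM in the VF ileum (-1.55 ± 0.66, adjusted p = 0.412), with at most 0.0507 CPM in any duodenum library. Among the 7 genes that fell in the ileum were Kitl, the ligand of the KIT receptor (-0.50 ± 0.10, adjusted p = 0.0323), Adamdec1, a protease of gut macrophages and fibroblasts (-0.75 ± 0.11, adjusted p = 0.00158), and Ednra, an endothelin receptor (-0.61 ± 0.14, adjusted p = 0.0468). Their duodenum effects were -0.23, -0.36 and -0.08.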

How the data were processed

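Polyadenylated RNA of gut sections was sequenced from a directional library kit, per the labels' protocols. The authors deposited counts of reads per gene and strand, and per the submitters' processing notes the genome build was GRCm38 and the tools were FastQC 0.11.5, STAR 2.7.7a and DESeq2 1.34.0, whose roles are not given in the sources used here. The count column for the reverse strand was used (column 4), which held 97.9 to 98.6% of the gene reads of both strands. The 4 entries that name no gene, 20.0 to 31.7% of all reads, were left out of library sizes and tests. Counts of 19068931 to 26923744 reads a library limit precision mainly for genes under 1 CPM.

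The 23 libraries were fitted together as 4 groups in R 4.3.3 with edgeR 4.0.16 and limma 3.58.1, by the quasi-likelihood test after scaling by the trimmed mean of M values. Genes passed a filter on low counts (minimum count 10, minimum total 15), which left 15512 of 25229. Adjusted p-values are Benjamini-Hochberg over these 15512, called under 0.05. Sharing 1 spread between sections lets the sections affect each other's calls. Summed marker levels were compared by exact permutation tests. The fit was tested on simulated data, where the difference was called in 7 of 50 genes given 1.5-fold and 42 of 50 given 2-fold, and in 8 unchanged genes among 155 calls. The simulation held no lactation effect but these and 50 genes each at 4-fold and 8-fold. With 155 calls there, against 4 in the data, the adjustment was less strict, so these shares do not carry over to the data. LF_Duodenum 3 was left out of the comparison.

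The comparison and the gene lists were chosen with earlier results of these data known. Genes named were 17 fixed ones, the up to 12 called genes of each sign with the largest difference (filled from those at an unadjusted p under 0.001), and those called in both ends. Genes named beside these, such as Slc40a1, Flvcr2, Notum, Sqle and Slc2a2, are called or background members of the lists, or were chosen after their values were seen. Alternatives were another scaling, filter, sample set, tool (DESeq2 1.42.0), a replicate block, a section weight, a pancreas covariate and leaving out each library. Sequences are from RefSeq promoters of GRCm38.p6. No 2 libraries held identical values, and the highest correlation of a pair was 0.992.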

Additional observations from a re-analysis of the deposited data

Results flagged for a closer look

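Of 167 groups of libraries examined, 1 gene and 1 group at a time, 25 held a library far from the others in its group. The cut-off gives about 1 in 20 for normally distributed values. CPM were used without a log scale, and the genes were partly chosen by their values. The share expected by chance is therefore not known. Groups whose highest library was under 1 CPM were not examined.

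LF_Duodenum 4 stood above the other LF duodenum libraries for Trpv6 (207 CPM, next 45.9), Slc39a4 (1429, next 525), Slc30a10 (647, next 334), Pck1 (709, next 264), Unc93a2 (68.9, next 48.9) and Oma1 (75.2, next 51.2). LF_Duodenum 6 did so for Olfm4 (347 CPM, next 141) and Acta1 (49.1, next 9.18). VF_Duodenum 2 stood above the other VF duodenum libraries for Trpv6 (11.8 CPM, next 0.44), S100g (252, next 61.8) and Slc30a10 (290, next 122), and under them for Ttll2 (5.88, next 9.44). VF_Duodenum 6 stood above them for Gsdmc3 (1.91 CPM, next 0.588), Mgat4c (2.47, next 1.17) and Ggh (19.4, next 11.5), and VF_Duodenum 1 under them for Cbl (10.4, next 15.9).

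In the ileum, LF_Ileum 2 stood above the other LF libraries for Slc5a4a (68.1 CPM, next 40.4), Slc5a4b (26.7, next 10.8), Pck1 (207, next 105) and Slc30a10 (204, next 102). LF_Ileum 1 stood above them for Ttll2 (3.24 CPM, next 1.45) and under them for Oxct1 (266, next 306), LF_Ileum 3 under them for Mki67 (118, next 134), and LF_Ileum 4 above them for Ggh (8.10, next 6.75). VF_Ileum 3 stood above the other VF ileum libraries for Mgat4c (470 CPM, next 400).

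The lactation effect differed between the ends by edgeR's test of the difference itself for Zbed6 (4.18), Ttll2 (2.74), Oxct1 (-0.82) and Cyp2d34 (-7.56). In LF_Duodenum 3, outside the comparison, the liver list took 20.1% of gene reads, against at most 0.0408% in the 23 libraries used.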

How the results depend on the processing

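The numbers of genes called for the difference, the ileum, the duodenum and both ends were 4, 58, 52 and 2. DESeq2 called 43, 188, 154 and 14, and 5 of its 43 differences were members of the pancreas list used here. The largest DESeq2 differences in size were those of Reg2 (16.4), Rbpjl (15.5), Cela2a (-16.2), Pnlip (-15.7), Cela3b (-15.6), 2210010C04Rik (-14.9), Prss2 (-14.9) and Try5 (-14.7). With LF_Duodenum 3 included they were 1, 1, 154 and 0, and the duodenum effect of Srd5a2 turned to 1.63. The 34 female libraries of 3 sections gave 11 differences. Each section fitted on its own gave 161 in the ileum, 1 in the duodenum and 0 in both. A weight per section (limma-voom, chosen after seeing the data) gave 334 and 16. The pancreas covariate, also chosen after seeing the data, gave 9 differences, 23 duodenum calls and 1 in both. Beside the 4, its differences were those of Dmgdh (5.75), Pon1 (5.31), Uox (5.04), Hc (4.35) and Sult1c2 (-2.34). The part of neighbouring tissue in them was not tested. Both ends had 1 call under library totals alone, no filter on low counts, and median-of-ratios size factors. Correlations between the ends did not show that library numbers pair samples (11 pairs, correlations -0.25 to 0.31, 1 correlating best with its own number, and 5 of the 6 VF pairs and none of the 5 LF pairs over 0.1). They cannot exclude a shared animal, as each compares different sections. With the replicate number as a block the duodenum had 32 calls, and with lactation status and number as the block the difference had 0, and 841 at an unadjusted p under 0.05. Leaving out 1 library gave 4 to 10 differences (10 without VF_Duodenum 2, 9 without LF_Duodenum 5), 17 to 93 ileum calls (17 without VF_Ileum 1, 93 without VF_Ileum 2), 13 to 110 duodenum calls (13 without VF_Duodenum 5, 110 without LF_Duodenum 6) and 0 to 4 in both. The cause of these changes was not tested. All 4 called differences kept their direction in each of these fits. Depth limits Trpv6 in the ileum, Cyp2d34 in the VF duodenum, Ttll2 in the VF ileum, and Gsdmc2 and Srd5a2 in the LF duodenum, among other genes of low level.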

Other observations

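The 18 tested genes of the urea cycle, proline and polyamine list had no call at either end and medians of 0.06 in the ileum and 0.04 in the duodenum. Kyat1, Slc25a15 and Aldh4a1, which are called in the ileum, are not on that list. Kyat1, a kynurenine aminotransferase, was at 39.8 to 62.4 CPM in the LF ileum, all above the 13.6 to 39.5 CPM of the VF ileum (1.2 ± 0.19, edgeR, adjusted p = 0.00326), and at 27.7 to 40.3 CPM in the LF duodenum and 24.7 to 37.9 CPM in the VF duodenum. Slc25a15, the mitochondrial ornithine carrier, was at 204 to 276 CPM in the LF ileum, all above the 120 to 186 CPM of the VF ileum (0.70 ± 0.11, edgeR, adjusted p = 0.00344), with a duodenum effect of 0.01 ± 0.12. Aldh4a1, an enzyme of proline breakdown, was at 37.2 to 112 CPM in the LF ileum and 22 to 37.3 CPM in the VF ileum (1.24 ± 0.22, edgeR, adjusted p = 0.00924), groups that crossed by 1 pair of libraries. The differences between the ends of Kyat1, Slc25a15 and Aldh4a1 were 1.07, 0.69 and 1.02, and none was called. These 3 genes were chosen after their values were seen.

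In the duodenum, Slc35d1, a carrier of nucleotide sugars, was at 71.6 to 151 CPM in LF, all above the 40.8 to 59.2 CPM of VF (0.93 ± 0.14, edgeR, adjusted p = 0.0026), and at 53.1 to 66.6 CPM in the LF ileum and 43.7 to 55.6 CPM in the VF ileum (0.31 ± 0.13, adjusted p = 0.41). Pparg, a nuclear receptor of lipid metabolism, was at 17.2 to 29.5 CPM in the LF duodenum, all above the 11.4 to 15.8 CPM of the VF duodenum (0.79 ± 0.16, edgeR, adjusted p = 0.0216), with an ileum effect of 0.22 ± 0.15. Slc35d1 and Pparg were also chosen after their values were seen.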
